A study of Danio rerio with 6 samples.

Results

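The 10 genes described here make, carry, take up and sense the catecholamines dopamine and noradrenaline in the zebrafish brain. They were chosen by symbol (th, th2, ddc, dbh, slc6a3, slc6a2, slc18a2, drd1b, drd2a and drd2b) out of 23678 genes in the deposited matrix, and all 10 were found and passed the filter on low values, a mean of at least 1. The name table gives drd2a and drd2b the same symbol, DRD2, so these appear below as the drd2 copies ENSDARG00000011091 and ENSDARG00000056926. The gene drd1b was matched through DRD1, the symbol the name table gives for its ID.

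Whole brains of adult fish homozygous for chrna3 C246X, a CRISPR/Cas9 mutation written as a stop in place of a cysteine, were set against those of wild-type (WT) adults. The product of chrna3 is a subunit, alpha3, of nicotinic receptors for acetylcholine on neurons, and the title of the series concerns alcohol response. Each genotype had 3 libraries of polyadenylated RNA, and no drug or alcohol treatment is named in the labels. The labels give neither sex, hour of sampling nor the relation of the WT fish to the mutants, and they do not say whether a library is 1 brain or a pool, so the p-values speak only of the scatter among these libraries, part or all of which may be technical.

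Tyrosine hydroxylase (th) turns tyrosine into L-DOPA, the step that limits catecholamine synthesis, and aromatic amino acid decarboxylase (ddc) turns L-DOPA into dopamine. Dopamine beta-hydroxylase (dbh) then makes noradrenaline in the neurons that hold it, such as those of the locus coeruleus in the hindbrain. Transporters load both amines into vesicles (slc18a2) and clear dopamine (slc6a3) and noradrenaline (slc6a2) from the synapse. In zebrafish, dopamine neurons lie in the olfactory bulb, the telencephalon, the diencephalon and the hypothalamus, but not in the midbrain as in mammals.

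Values are estimated reads divided by 1 factor per library, so a value is close to a read number, and library sums lay between 25655952 and 26794838. They are not corrected for gene length, so levels of different genes are not ranked. A change is the C246X mean minus the WT mean of log2(value + 1). A gene is said to have passed where its limma p, adjusted by Benjamini-Hochberg over 23104 genes, was under 0.05. The chrna3 transcript had 59.8, 40.7 and 57.4 in C246X brains and 102, 28.1 and 55.1 in WT brains, which overlap. Since a premature stop can leave the RNA level as it was, these values are no check of the genotype labels. Markers of other cells also moved between genotypes. In C246X brains 13 of 16 retina and pineal genes and 12 of 13 microglia and macrophage genes were lower. Of all tested genes 11.4% were lower and 11.1% higher. The retina and pineal genes summed to 424 to 7308 in C246X libraries and 9597 to 30674 in WT libraries, and the microglia genes to 5245 to 7038 in C246X and 9621 to 10606 in WT. Glia genes were lower in 8 of 15 and higher in 1, with sums of 369363 to 403604 in C246X and 473574 to 544529 in WT. Of 15 neuron markers 1 was higher and 2 were lower, with sums of 314198 to 331358 in C246X and 303212 to 337812 in WT. The part of these cells in the results below was not tested.

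WT replicate 2 stood apart in genes of the hindbrain and spinal cord. Its 15 Hox genes, which mark position along the hindbrain and cord, summed to 450.2, against 2900.1 and 2538 in the other WT libraries and 2909 to 3464 in the C246X libraries. Of these genes 3 passed as higher in C246X and 0 as lower, beside 11.1% and 11.4% of all genes. Every C246X library lay above every WT library for 9 of the 15 and below for 0, beside 20.7% and 20.7% of all genes. Low values were not confined to WT replicate 2. HOXC8 had 117, 92.7 and 126 in C246X brains and 15.9, 0 and 8.47 in WT brains. HOXC9 was listed at 0 in every WT library. The same WT library held the highest sum of retina and pineal genes. For dbh, slc6a2, drd1b and the drd2 copy ENSDARG00000056926, the change without WT replicate 2 is also given. Without that library th and ddc still passed, and slc6a2 and the drd2 copy ENSDARG00000011091 did not.

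Of the 10 genes, 2 passed as higher in C246X brains, th and 1 drd2 copy, and 2 as lower, ddc and slc6a2. Over all tested genes 11.1% passed as higher and 11.4% as lower. Every C246X library lay above every WT library for 3 of the 10 and below for 3, where 20.7% and 20.7% of all genes did so. The median log2 change of the 10 was 0.26, and that of all genes −0.0077. Whether the 10 genes changed more often than others was not tested. In whole brain, fewer cells of a type and less RNA per cell cannot be told apart.

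**Figure D1:**
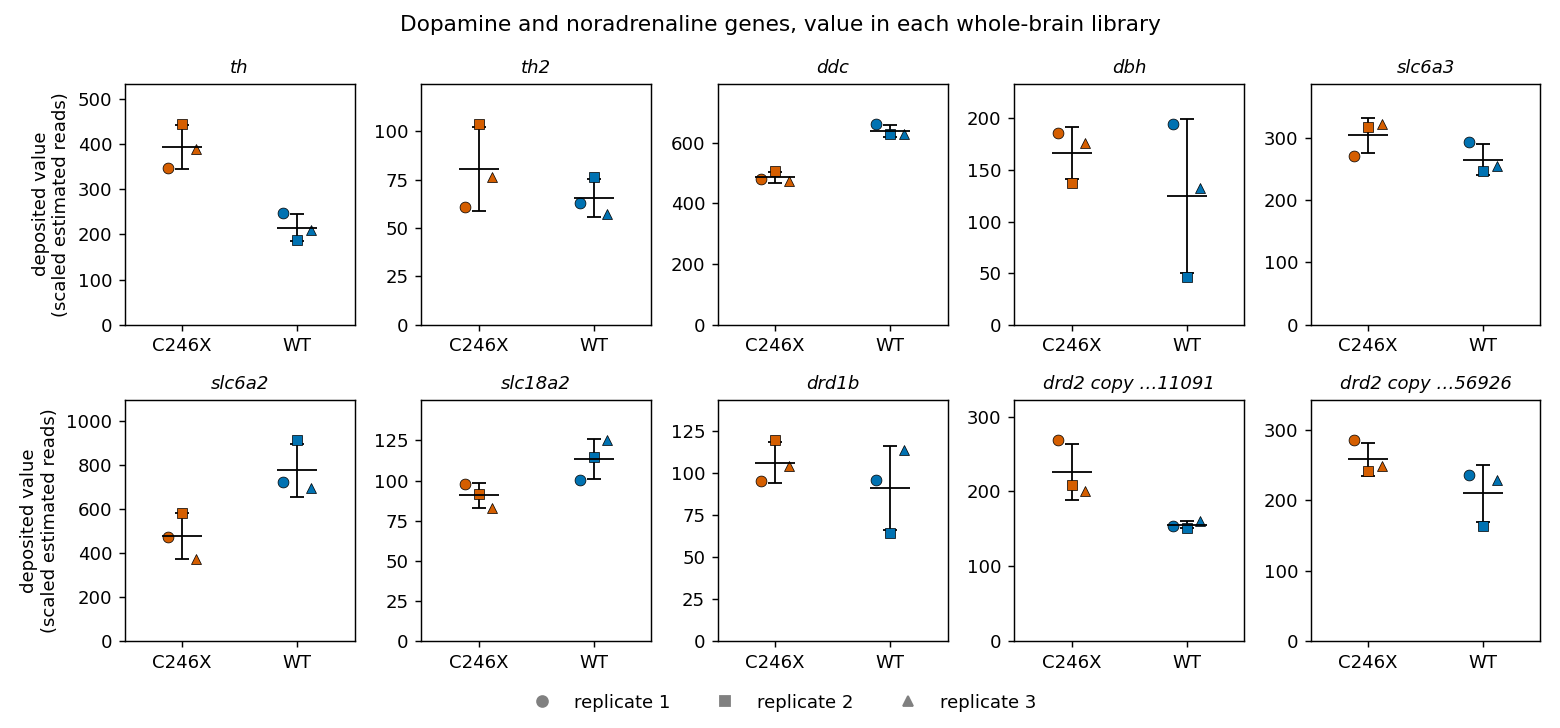
Deposited value (scaled estimated reads, vertical axis from 0) of each gene in the 3 C246X and 3 WT libraries, with the mean (long bar) and SD (whiskers) and 1 marker shape per replicate number. The genotypes separate fully for th, ddc, slc6a2, slc18a2 and both drd2 copies, and dbh in WT spans 45.9 to 195.

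Synthesis genes moved in opposite directions. The value of th was 347, 445 and 389.8 in C246X brains, against 248, 188 and 209.7 in WT brains. All mutant libraries were above all WT libraries, with means of 394 ± 49.3 in C246X and 215 ± 30.4 in WT (SD, n = 3 each). The change was 0.87 on the log2 scale (SE 0.14, 95% interval 0.55 to 1.19), 1.83-fold, with an adjusted p of 0.00405. It passed under each of the 16 alternative settings, with changes of 0.78 to 0.98 and adjusted p of 0.00389 to 0.0217. Amacrine cells of the retina also express th, and the part of retinal tissue in this result was not tested. The retina and pineal genes summed above were not chosen to mark amacrine cells, so their sums do not measure these cells.

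The duplicate th2 encodes a second tyrosine hydroxylase, found mainly in the hypothalamus of zebrafish. It had 60.9, 104 and 76.6 in C246X brains and 62.7, 76.4 and 57.2 in WT brains. The genotypes overlapped, and the change of 0.27 did not pass (95% interval −0.28 to 0.82, adjusted p = 0.461). The difference between the changes of th and th2 was not tested.

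Among the 10 genes ddc had the smallest coefficient of variation in C246X, 3.62%. In WT it had 3.12%, and the drd2 copy ENSDARG00000011091 had 3.07%. The values of ddc were 479, 506 and 473 in C246X brains and 662, 627 and 628 in WT brains, with no overlap. The means were 486 ± 17.6 in C246X and 639 ± 20.0 in WT, a log2 change of −0.39 (SE 0.073, 95% interval −0.56 to −0.23, adjusted p = 0.00757), or 0.761 of the WT level. It passed under each of the 16 alternatives (−0.42 to −0.37, adjusted p of 0.00624 to 0.035). Serotonin neurons use the same enzyme. Of 10 serotonin neuron genes 5 had positive and 5 had negative changes, with a median of 0.053. Every C246X library lay above every WT library for 2 of the 10 and below for 2, where 20.7% and 20.7% of all genes did so. Of the 10 genes 1 passed as lower and 0 as higher, beside 11.4% and 11.1% of all genes. This was the synthesis gene TPH2, with 338 ± 120.0 in C246X and 715 ± 149 in WT (log2 change −1.11, adjusted p = 0.0143). The serotonin transporter gene SLC6A4 (ENSDARG00000061165) had 210 ± 6.43 in C246X and 247 ± 2.73 in WT and did not pass (adjusted p = 0.123). Going the other way, htr1b had means of 348 in C246X and 269 in WT (log2 change 0.37, adjusted p = 0.0727). HTR1D had means of 561 in C246X and 494 in WT (log2 change 0.18, adjusted p = 0.134). Neither htr1b nor HTR1D passed, though every C246X library lay above every WT library for both. TPH2 was highest in replicate 2 of each genotype (474 in C246X, 880 in WT), as was the sum of retina and pineal genes. The part of serotonin neurons or of pineal tissue in the ddc result was not tested.

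As a ratio of deposited values within a library, th over ddc was 0.724, 0.879 and 0.823 in C246X brains, against 0.374, 0.300 and 0.334 in WT brains. This ratio was computed after the values of both genes had been seen, and no test is given. It averaged 0.809 ± 0.0786 in C246X and 0.336 ± 0.0374 in WT.

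The noradrenaline synthesis gene dbh had 186, 137 and 176 in C246X brains and 195, 45.9 and 133 in WT brains. The lowest value was that of WT replicate 2, the library low in Hox genes, and the coefficient of variation of dbh was 15.4% in C246X and 60.1% in WT. The change of 0.63 did not pass (95% interval −0.42 to 1.69, adjusted p = 0.361). Without WT replicate 2 it was 0.036 (adjusted p = 0.925), and without WT replicate 1 it was 1.07 (adjusted p = 0.11). PHOX2A, a transcription factor gene required for noradrenaline neurons, was also lowest in that library, and its other WT values lay within the C246X range. It had 189.8, 152 and 175 in C246X brains and 161, 67.3 and 165 in WT brains. It did not pass (adjusted p = 0.315). The gene is also used by hindbrain motor and visceral neurons, and the part of the amount of hindbrain in a library was not tested.

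Unlike dbh, slc6a2 was highest in WT replicate 2. Its values were 473, 584 and 375 in C246X brains and 722, 913 and 695 in WT brains, with no overlap. The means were 477 ± 105 in C246X and 777 ± 119 in WT, a log2 change of −0.71 (SE 0.17, 95% interval −1.10 to −0.33, adjusted p = 0.0196), or 0.609 of the WT level. The gene did not pass without C246X replicate 1 (−0.72, adjusted p = 0.0658), C246X replicate 3 (−0.55, 0.054) or WT replicate 2 (−0.59, 0.0533), nor with no filter on low values (0.0519) or no mean-variance trend (0.0734). Over all pairs of the 10 genes, slc6a2 and dbh had the patterns least like each other, with a root mean square difference of 1.04 in log2 values centred on each gene's mean over the 6 libraries. These differences are not scaled for spread. The gene dbh, with 45.9 in WT replicate 2, was also far from th2 and slc18a2 (0.822 for each). The differences without that library were not computed. The ratio of slc6a2 to dbh was 2.55, 4.25 and 2.13 in C246X brains and 3.71, 19.9 and 5.23 in WT brains, again given without a test.

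**Figure D2:**
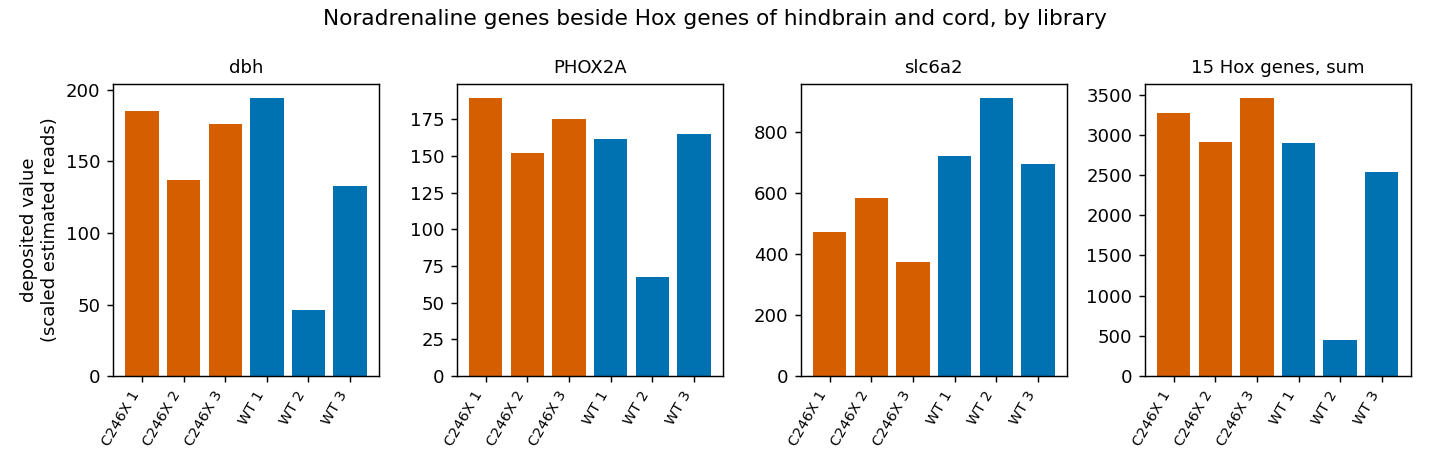
Deposited value (scaled estimated reads, bars from 0) of dbh, PHOX2A and slc6a2, and the sum of 15 Hox genes of hindbrain and cord, in each C246X library (orange) and WT library (blue). WT replicate 2 is lowest in dbh, PHOX2A and the Hox sum (450.2), and highest in slc6a2 (913).

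The other transport genes did not pass. The vesicular transporter gene slc18a2, used by all monoamine neurons, had 98.0, 91.7 and 82.6 in C246X brains and 101, 115 and 125 in WT brains. All C246X libraries were below all WT libraries, with a change of −0.32 (95% interval −0.69 to 0.06, adjusted p = 0.200). Its pattern over the 6 libraries was the closest to that of ddc among the 10 genes (root mean square difference 0.139). The dopamine transporter gene slc6a3 marks dopamine neurons and had 271, 318 and 322 in C246X brains and 293, 246.2 and 254 in WT brains. Its groups overlapped, and the change was 0.20 (95% interval −0.07 to 0.47, adjusted p = 0.26). The ratio of slc6a3 to th was 0.783, 0.714 and 0.827 in C246X brains, against 1.18, 1.31 and 1.21 in WT brains, a description made after the values were seen.

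Of the 3 receptor genes chosen, 1 passed as higher in C246X brains and 2 did not pass. The D2 family lowers cyclic AMP, and D2 receptors act both on target neurons and on the dopamine neurons themselves. The drd2 copy ENSDARG00000011091 had 268, 209 and 200.5 in C246X brains and 154, 152 and 161 in WT brains, with no overlap. Its means were 226 ± 37.0 in C246X and 156 ± 4.78 in WT, a log2 change of 0.52 (SE 0.14, 95% interval 0.20 to 0.85), 1.44-fold (adjusted p = 0.0327). This was the least stable of the 4 calls. It was lost with each of C246X replicates 1 and 2 and WT replicates 1, 2 and 3 left out, at adjusted p of 0.0612 to 0.0998 and changes of 0.39 to 0.57. With no mean-variance trend its adjusted p was 0.0558.

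The drd2 copy ENSDARG00000056926 had 285, 241 and 248 in C246X brains and 236, 164 and 229 in WT brains. These did not overlap, but the change of 0.31 did not pass (95% interval −0.06 to 0.68, adjusted p = 0.199), and it was 0.15 without WT replicate 2 (adjusted p = 0.44). The D1 receptor gene drd1b, whose product raises cyclic AMP, had 94.9, 119 and 104 in C246X brains and 95.6, 64.3 and 113 in WT brains. Its groups overlapped, with a change of 0.25 (95% interval −0.28 to 0.78, adjusted p = 0.479). Without WT replicate 2, its lowest library, the change was 0.019. Differences between the changes of the receptor genes were not tested.

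**Figure D3:**
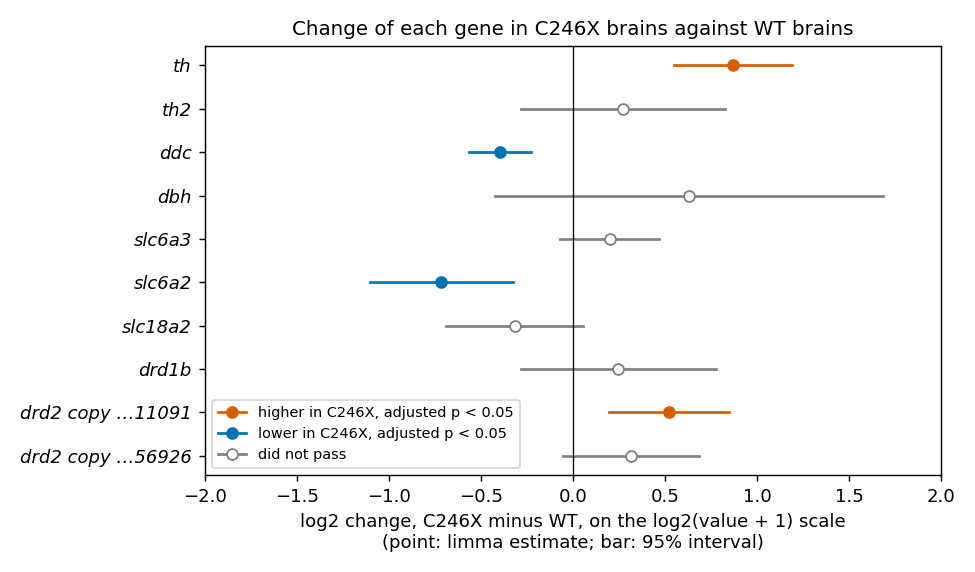
Log2 change of each gene (points; mean of log2(value + 1) in C246X less that in WT) with its 95% interval from limma (bars); filled points passed at an adjusted p under 0.05. The genes th (0.87) and drd2 copy ENSDARG00000011091 (0.52) lie above 0, and ddc (−0.39) and slc6a2 (−0.71) below it, while dbh has the widest interval.

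Of the other dopamine receptor genes, 9 were tested and all 9 had positive changes (median 0.37), where 49.0% of all genes did. None passed by limma or by limma-voom, where 11.1% of all genes passed as higher by limma and 11.4% as lower. The 2 of the 9 with the smallest limma p were the D3 gene DRD3 and the D4-related gene drd4-rs, named after their values were seen. DRD3 had 397 ± 13.6 in C246X and 313 ± 41.5 in WT (adjusted p = 0.0578). The gene drd4-rs had 535 ± 42.9 in C246X and 415 ± 65.4 in WT (adjusted p = 0.0713). The summed value of all 9 was 1225 to 1354 in C246X libraries and 910 to 1132 in WT libraries. Most of that sum came from DRD3 and drd4-rs, and the lowest group mean among the 9 was 11.3. Every C246X library lay above every WT library for 3 of the 9, and the others overlapped. Over all genes the share above was 20.7%. The paralogs drd2l and drd1a were low, with 44.5 ± 9.3 in C246X and 37 ± 2.83 in WT for drd2l and 23.7 ± 7.45 in C246X and 16.3 ± 2.03 in WT for drd1a.

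Among adrenergic receptor genes, which sense noradrenaline and adrenaline, 1 of 14 tested was higher and 0 were lower. This was the alpha2 gene ADRA2B, with 465 ± 35.5 in C246X and 364 ± 35.6 in WT (log2 change 0.35, adjusted p = 0.0441). It was lost without any 1 C246X library or without WT replicates 2 or 3 (adjusted p of 0.0693 to 0.144). Below the receptors, 4 of 20 signalling genes were higher and 1 was lower. For both lists, the shares over all tested genes were 11.1% higher and 11.4% lower. The phosphodiesterase gene PDE10A, which marks striatal neurons in mammals, had 1384, 1124 and 1176 in C246X brains and 333, 656 and 624 in WT brains (log2 change 1.25, SE 0.24, adjusted p = 0.00832). The receptor kinase gene GRK3 had 1967 ± 104 in C246X and 1457 ± 68.3 in WT (log2 change 0.43, adjusted p = 0.00319). Both passed under all 16 alternatives. The beta-arrestin gene ARRB1 rose by 0.40 (adjusted p = 0.0237) and a copy of RGS9 (ENSDARG00000045156), a brake on G proteins, by 0.25 (adjusted p = 0.0304), and prkacba, a protein kinase A subunit gene, had 8.15 ± 0.975 in C246X and 21.9 ± 6.31 in WT (adjusted p = 0.0341). ARRB1 was lost without any 1 C246X library or WT replicate 2 (0.0543 to 0.0816). This RGS9 copy was lost without any 1 C246X library or WT replicate 3 (0.0683 to 0.109), and prkacba without any 1 C246X library or WT replicates 1 or 2 (0.0715 to 0.0979). The other RGS9 copy, ENSDARG00000037925, went the other way, with 5.20 ± 3.71 in C246X and 18.6 ± 6.31 in WT. It did not pass (adjusted p = 0.0642). PPP1R1B, the gene of DARPP-32, a target of dopamine signals, had 979.6 ± 27.4 in C246X and 840 ± 75.9 in WT and did not pass (adjusted p = 0.082); it was named after its values were seen.

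**Figure D4:**
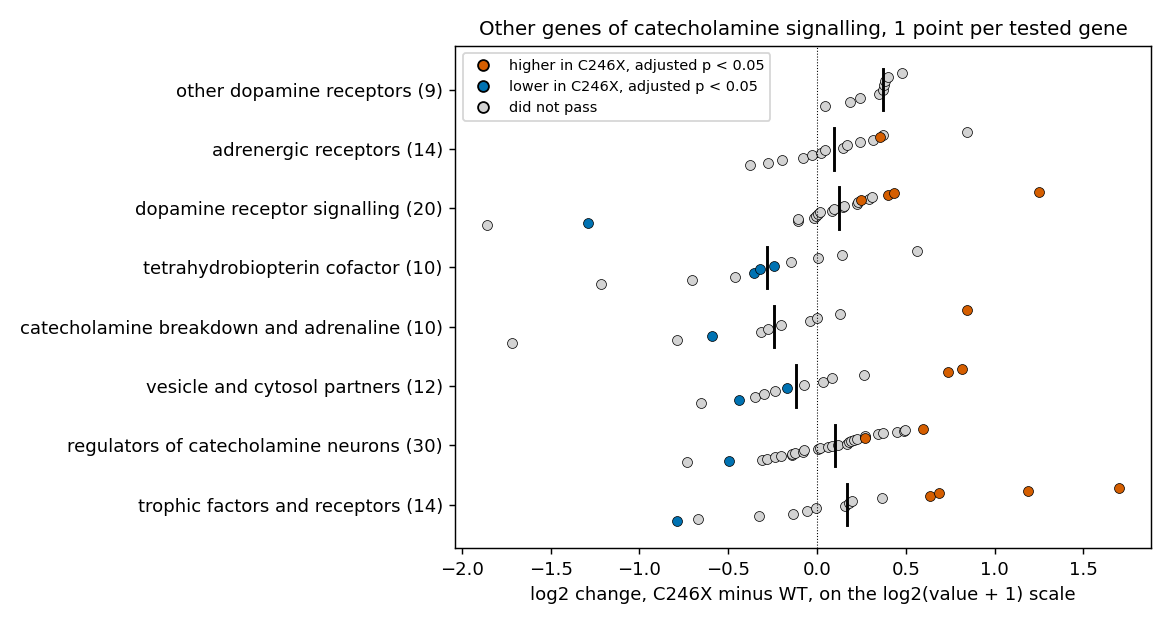
Log2 change, C246X less WT, of each tested gene in 8 lists of genes linked to catecholamines, with the number tested in brackets. Colour marks genes that passed at an adjusted p under 0.05, and black bars mark list medians. The lists also hold genes with other roles, such as the acetylcholine transporter gene SLC18A3. All 9 other dopamine receptor genes lie above 0 without passing, and 3 of 10 cofactor genes passed as lower.

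Tetrahydrobiopterin is the cofactor that th, th2 and the serotonin enzymes need. Of its 10 tested genes 3 were lower and 0 higher in C246X brains (median −0.28), where 11.4% of all genes were lower and 11.1% higher. In 6 of the 10 all C246X libraries were below all WT libraries, and over all genes this share was 20.7%. GCHFR, the feedback regulator of the first enzyme, had 529 ± 8.04 in C246X and 678 ± 41.4 in WT (log2 change −0.35, adjusted p = 0.0134). SPR (ENSDARG00000004406), the last enzyme of synthesis, had 511 ± 28.8 in C246X and 638 ± 26.7 in WT (−0.32, adjusted p = 0.0227). QDPR (ENSDARG00000040190), which recycles the cofactor, had 909.9 ± 31.4 in C246X and 1077 ± 32.1 in WT (−0.24, adjusted p = 0.0279). GCH1, the first enzyme, named after its values were seen, had 433, 679 and 518 in C246X brains and 689.6, 771 and 749.99 in WT brains and did not pass (adjusted p = 0.061). GCHFR was lost without C246X replicate 3 (0.0522), SPR without C246X replicates 2 or 3 or WT replicate 2 (0.0562 to 0.0856), and QDPR without any 1 C246X library or WT replicate 3 (0.0552 to 0.101).

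In the list of breakdown and adrenaline genes, 1 of 10 tested was higher and 1 lower, with a median change of −0.24. Of all tested genes 11.1% were higher and 11.4% lower. The monoamine oxidase gene mao, named after its values were seen, had 2605 ± 79.9 in C246X and 2387 ± 155 in WT and did not pass (adjusted p = 0.194).

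Vesicle and cytosol partners had 2 higher and 2 lower of 12, beside 11.1% and 11.4% of all genes. CYB561, which renews the ascorbate that dbh uses inside vesicles, had 364, 419 and 372 in C246X brains and 221, 219 and 249.5 in WT brains (log2 change 0.74, SE 0.11, adjusted p = 0.00243). PARK7, whose product DJ-1 guards against oxidation, had 1553 ± 52.8 in C246X and 2105 ± 46.9 in WT (−0.44, adjusted p = 0.00141). Both passed under all 16 alternatives. A copy of the vesicular acetylcholine transporter gene SLC18A3 (ENSDARG00000006356) rose by 0.81 (adjusted p = 0.0434) and the beta-synuclein gene sncb fell by 0.17 (adjusted p = 0.0441). This SLC18A3 copy was lost without any 1 C246X library or WT replicate 3 (0.0733 to 0.131). The call of sncb was lost without any 1 C246X library or WT replicates 1 or 3 (0.0683 to 0.151). The other SLC18A3 copy, ENSDARG00000107527, had 103 ± 13.3 in C246X and 129 ± 30.1 in WT and did not pass (adjusted p = 0.349).

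Of 30 regulators of catecholamine neurons 2 were higher and 1 lower, beside 11.1% and 11.4% of all genes. The factors NR4A2, pitx3, FOXA2 and the LMX1B and OTP copies, known for dopamine neurons, did not pass, and the nearest, named after its value was seen, was NR4A2 copy ENSDARG00000017007, with 485 ± 13.2 in C246X and 403 ± 25.4 in WT (adjusted p = 0.0521). The genes that passed were EBF3 (0.27, adjusted p = 0.018), RNF220 copy ENSDARG00000075183, a ubiquitin ligase gene (0.60, 0.0217), and etv5b, an Ets factor gene (−0.50, 0.0239). EBF3 was lost without any 1 C246X library (0.0518 to 0.0685), RNF220 without C246X replicates 1 or 3 or WT replicate 3 (0.0623 to 0.0791) and etv5b without C246X replicates 1 or 3 or WT replicate 2 (0.0583 to 0.088).

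Trophic factors and their receptors had 4 higher and 1 lower of 14, beside 11.1% and 11.4% of all genes. The BDNF receptor gene ntrk2b had 1269, 1142 and 1122 in C246X brains and 464, 514 and 574 in WT brains (log2 change 1.19, SE 0.095, adjusted p = 0.000174). GFRA1 (ENSDARG00000102564), a co-receptor gene for GDNF, had 370.1 ± 23.5 in C246X and 239 ± 33.2 in WT (0.64, adjusted p = 0.00859). The factor gene cntf had 102 ± 15.7 in C246X and 176 ± 17.6 in WT (−0.79, adjusted p = 0.0117). These 3 passed under all 16 alternatives. GFRA2 copy ENSDARG00000042723, a co-receptor gene for neurturin, rose by 0.69 (adjusted p = 0.0254), and was lost without C246X replicates 1 or 2 or WT replicates 2 or 3 (0.0664 to 0.0878). The neurturin gene nrtn, close to the lower limit of counting, had 14.4, 7.13 and 16.1 in C246X brains and 3.98, 2.01 and 3.18 in WT brains (adjusted p = 0.0336, and 0.0705 to 0.116 without C246X replicates 1 or 3 or WT replicates 2 or 3).

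Over the 8 lists, 14 of 119 tested genes were higher and 9 lower, beside 11.1% and 11.4% of all genes, and the median change was 0.064. Of 8 lists, the other dopamine receptors had the highest median (0.37) and the cofactor genes the lowest (−0.28). The lists were described by counts and not tested as sets.

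Genes with patterns most like those of the 4 that passed were taken by the smallest root mean square difference in centred log2 values over the 6 libraries, among genes with a mean of at least 100. For th these were NAB1 copy ENSDARG00000040700 (0.0935), TMTC2 copy ENSDARG00000035273 (0.107) and zgc:172122 (0.11). For ddc they were ALDH4A1 (0.028), PLAG1 (0.0286) and REEP3 (0.0313). For slc6a2 they were FGFR1 copy ENSDARG00000011027 (0.081), SNX27 copy ENSDARG00000033804 (0.0929) and etv5a (0.0984). For the drd2 copy ENSDARG00000011091 they were KSR1 copy ENSDARG00000068714 (0.0572), rab11fip5b (0.0645) and fhod3a (0.0695). None of the 12 is a gene of the 8 lists. Those 8 lists held only 119 of the 23104 tested genes, so nothing is drawn from this. These genes share the 6 libraries and a shift between genotypes with the gene they were matched to.

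Lists for other cells and places were described by counts alone, to be read beside the 11.1% higher and 11.4% lower of all tested genes. Of 10 hypothalamic genes 2 passed as higher, pmchl (681 ± 76.2 in C246X and 339 ± 75.4 in WT) and agrp (40.7 ± 11.3 in C246X and 5.38 ± 4.15 in WT), and 1 as lower, avp (160.0 ± 43.2 in C246X and 302 ± 32.8 in WT). Of 11 olfactory bulb and pallium genes 1 was higher, a NEUROD6 copy (ENSDARG00000040008), and 0 were lower; 9 had positive changes, and the sums were 15457 to 16451 in C246X libraries and 12476 to 14666 in WT libraries. Of the 15 Hox genes 14 had positive changes (median 1.62), with WT replicate 2 included. The histamine list had 0 of 3 passed by limma and 0 by limma-voom.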

How the data were processed

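Libraries of adult zebrafish whole-brain RNA numbered 6, 3 per genotype. The deposited signal values behave as estimated read numbers that the authors scaled by a single factor in each library: low values are multiples of 1 step, and 95.0% to 95.1% of values under 1000 are whole within 0.03. The submitters' processing notes name STAR and the GRCz11 build, and the labels' protocols give paired reads of 150 bp. No version, counter, strand setting or scaling method is named there. Recovered totals were 24222344 to 26659980 reads, and counting error limits low genes. In the matrix the C246X rows carry another sample name and were assigned by their genotype entry and replicate number.

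Genes with a mean of at least 1 (23104 of 23678) were tested for genotype by limma 3.58.1 in R 4.3.3, with a mean-variance trend, on log2(value + 1). The fit was also run on simulated data with a fixed dispersion and no shift shared by groups of genes. That run therefore does not show how often calls are wrong in these libraries. The smallest exact permutation p for 3 against 3 is 0.1, so no such test is given. Genes were matched by symbol or by the human symbol that copies share. Members and lists were chosen with earlier results of these data known. The rule for named genes took the 10 genes and up to 4 passing genes per direction from each list. From each list of other cells it took the 2 with the smallest p in each direction (printed here only beside a result). The 3 nearest patterns of each member that passed were also taken. PHOX2A, a marker of noradrenaline neurons, and PPP1R1B were added to these. So were DRD3, drd4-rs, GCH1, mao, an NR4A2 copy and the other copies of RGS9 and SLC18A3, after their values were seen. The rule also allowed paralogs of members, such as drd2l and drd1a, and its genes of other cells need not have passed. Some genes counted in the lists are not reported here by name. Sequences and coordinates are not used here. Figures used matplotlib 3.10.9.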

Additional observations from a re-analysis of the deposited data

How the results depend on the processing

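Across the 16 alternatives (4 scalings, a pseudocount of 0.1, no filter, 1 CPM in 3 libraries, limma-voom on recovered reads, no mean-variance trend, a replicate block and each library left out), no member changed direction and no member that had not passed came to pass. The calls of th and ddc held under all of them, that of slc6a2 under 11 and that of the drd2 copy ENSDARG00000011091 under 9. For the 23 genes of the 8 lists that passed, 287 values kept the call and 79 missed the threshold, and none changed direction. The genes nrtn and prkacba had no value under the CPM filter. Without the trend, 1620 genes, 1 member and 7 pathway genes were higher, and 1 member and 5 pathway genes were lower. Without the filter, 1 member was lower. With each library left out, genes higher numbered 1401 to 2452 and lower 1585 to 2384, members higher 1 to 2 and lower 1 to 2, and pathway genes higher 5 to 19 and lower 2 to 8. The fit then has fewer samples, and the cause was not tested further. With the replicate block, 1 member was higher in C246X (the drd2 copy ENSDARG00000011091 had an adjusted p of 0.0513). The numbers only name samples: deviations of same-numbered libraries correlated at 0.0734, 0.0475 and 0.0554 over genes, below 0.1, although each library correlated best with its own number, a hint from the data and not the design. Depth limits genes with values near 3, such as nrtn.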
